A study of Saccharomyces cerevisiae with 18 samples.

Results

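Gene expression in budding yeast that carry WT *HCM1* or the stabilised mutant *hcm1-3N* was compared in control medium, without added LiCl, and is described here for genes outside the list of Hcm1 targets. The comparison rests on 6 of the 18 libraries of the series, 3 labelled WT control and 3 labelled 3N control. Of the 7126 genes counted, 7030 are not among the 96 targets that the study used, and 6143 of these had enough reads to be tested. All strains were derived from BY4741, a haploid MATa laboratory strain, with the alleles his3Δ1, ura3Δ0, leu2Δ0 and lys2Δ0 and a GFP cassette on chromosome VI. In every strain, with the markers HIS3MX6 and KanMX, the chromosomal *HCM1* was placed behind the *GAL1* promoter, which is off in dextrose, so that Hcm1 came from a centromeric *URA3* plasmid on which the *HCM1* promoter drives either WT *HCM1* or *hcm1-3N*. The mutant has alanines in place of phosphorylated residues of an N-terminal phosphodegron, the stretch that marks the protein for degradation. Cells were diluted, kept growing and collected after 40 h. Each strain also grew in 150 mM LiCl, and those 6 libraries serve here as a second set for the same strains.

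Hcm1 is a forkhead transcription factor that is present in S phase and activates genes of chromosome segregation and of the later cell cycle. Genes outside its target list can still follow the mutant through other regulators, growth state or the strain construction, and expression data alone do not separate these. The pathways that take up most of the text are regulated by well known factors in yeast. Gcn4 activates amino acid synthesis, Met4 with Cbf1 activates sulfur assimilation, Rpn4 activates the proteasome, Msn2 and Msn4 activate the general stress response, and the MAP kinase Slt2 with the factor Rlm1 responds to damage of the cell wall.

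Levels are given as CPM, the fragments of a gene per 1000000 counted in its library after TMM scaling. Differences are log2 fold changes of *hcm1-3N* over WT from edgeR's quasi-likelihood test, so that a negative value is lower in the mutant. The model held all 18 libraries and the replicate number as a block. A gene was called when its Benjamini-Hochberg adjusted p over all 6239 genes tested was under 0.05. The replicates are biological by the study's methods. The p-values rest on the spread left between replicates, over all groups of the series, once the shared effect of replicate number is removed.

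The 6 libraries held 18816441 to 21808117 counts, the lowest in *hcm1-3N* replicate 3, and 3 counts were worth 0.134 to 0.171 CPM. Replicate 1 stood apart from replicates 2 and 3 in both strains. The deviations of a library from its group mean correlated across genes at 0.79, 0.57 and 0.37 between same-numbered libraries of the strains, and at -0.66 and -0.61 between WT replicate 1 and *hcm1-3N* replicates 2 and 3. Replicates 2 and 3 were not separated from each other in this way. WT replicate 2 correlated with *hcm1-3N* replicate 3 at 0.51, and WT replicate 3 with *hcm1-3N* replicate 2 at 0.39, above its same-numbered value. A setting chosen after this was seen kept only replicates 2 and 3 of every group, and is given below as the fit on replicates 2 and 3. *LEU2* and *LYS2*, whose deletions the strains carry, were at 0 counts throughout. *MET17*, which the labels do not list as deleted, was at 498 to 896 CPM. The a-cell genes *MFA1*, *MFA2*, *STE2* and *BAR1* lay between 135 and 842 CPM in all 6 libraries. The alpha-factor genes *MF(ALPHA)1* and *MF(ALPHA)2* stayed between 0.467 and 7.58 CPM and the meiotic genes *NDT80*, *SPO11* and *SPS4* between 0.755 and 10.05 CPM. Not all such genes were this low. The 5 alpha-cell genes tested, with *SAG1* the main part, summed to 45.1 to 53.2 CPM in WT and 68.3 to 83.0 CPM in *hcm1-3N*. The 24 genes of meiosis and the spore wall summed to 145 to 158 CPM. *HCM1* itself did not pass the test (log2 fold change -0.29, adjusted p = 0.119). *URA3*, the marker of the plasmid, was at 739, 849 and 777 CPM in WT and 552, 524 and 616 CPM in *hcm1-3N* (-0.48, adjusted p = 0.0276 in edgeR), a call that was lost in the fits without WT replicate 1 or 2 or without any one *hcm1-3N* library (5 of 6 fits) and without the block (adjusted p = 0.0785).

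Outside the target list, 670 genes were higher and 707 lower in *hcm1-3N*, 10.9% and 11.5% of those tested and 22.4% together. Most differences were small. The median size was 0.43 among higher and 0.41 among lower genes on the log2 scale, and 50 higher and 11 lower genes differed by more than 1. The direction was the same in all 3 same-numbered pairs for 669 of the 670 and for 707 of the 707. The fit used these pairs as a block and so favours such genes, and the share among all genes was not counted. The CPM of the strains did not overlap for 558 of the higher and 570 of the lower genes, against 35.3% of all genes tested, called or not. The median log2 fold change of all genes outside the target list was -0.0035. Without the block 250 genes were higher and 214 lower, all of them with the block too. By chromosome the median lay between -0.050 (chromosomes VII and XVI) and 0.027 (chromosome III).

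The genes with the largest differences were fixed by a rule that asked for at least 5 CPM, the same direction in every pair and groups that do not overlap. The 12 highest of the 497 higher genes and the 12 lowest of the 562 lower genes that met it are plotted by library. Among the highest, beside *FIG1* described below, *HPF1* (YOL155C, chromosome XV, 28703 to 31606, minus strand, R64), which encodes a heavily mannosylated wall protein, was at 64.2, 47.9 and 65.0 CPM in WT and 219, 191 and 192 CPM in *hcm1-3N* (log2 fold change 1.77, SE 0.21, adjusted p = 0.000299 in edgeR). *GSC2* (chromosome VII, 548264 to 553951, plus strand), an inducible subunit of the glucan synthase of the wall, was at 96.3, 111 and 108 CPM against 222, 276 and 289.9 CPM (1.31, SE 0.12, adjusted p = 4.58e-05). In both genes the lowest mutant library was well above the highest WT library.

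**Figure D1:**
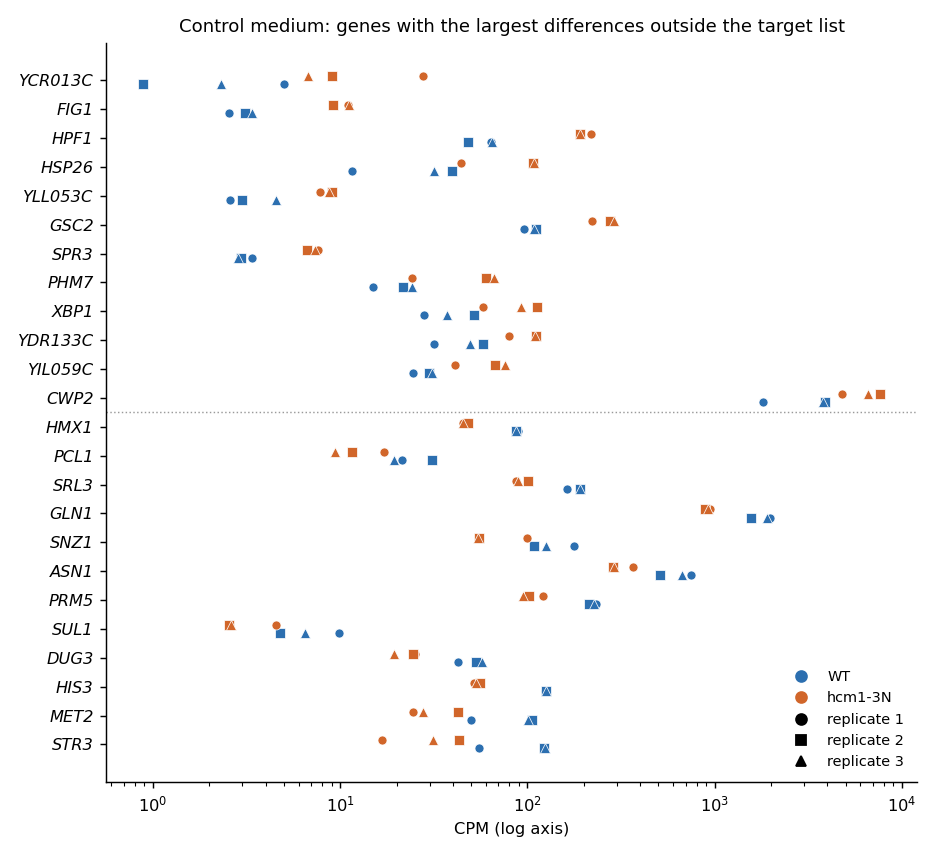
CPM (log axis) in the 6 control-medium libraries of the 12 highest and 12 lowest genes by log2 fold change, WT in blue and hcm1-3N in orange, with a marker shape for each replicate. The strains do not overlap in any of the 24 genes by the rule that chose them; in STR3, MET2, HSP26 and CWP2 replicate 1 of each strain lies below its other replicates.

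Among the lowest, after *STR3* and *MET2* described below, *HIS3* (YOR202W, chromosome XV, 721946 to 722608, plus strand) was at 124, 125 and 126 CPM in WT and at 52.0, 55.7 and 53.2 CPM in *hcm1-3N* (-1.22, SE 0.12, adjusted p = 5.1e-05 in edgeR). The groups are tight and far apart. The strains carry the his3Δ1 allele, a partial deletion, and the marker HIS3MX6. Where in these the reads come from was not tested. *HIS3* was at 142, 136 and 117 CPM in WT and 84.3, 91.1 and 75.8 CPM in *hcm1-3N* in LiCl (-0.65, adjusted p = 0.00870), and the mutant *hcm1-8E*, the third strain of the series, stood in between in control medium at 78.7, 79.4 and 85.8 CPM. *DUG3*, which acts in the breakdown of glutathione, was at 42.8, 53.1 and 57.0 CPM against 25.2, 24.4 and 19.4 CPM (-1.17, adjusted p = 0.00520). *SRL3*, at 163, 192 and 190.3 CPM against 87.3, 100.1 and 89.5 CPM, was lower as well (-0.98, adjusted p = 0.000303).

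Genes of sulfur assimilation and methionine synthesis were lower as a group. Of 30 tested, 18 were lower and 0 higher, 60% against a background of 11.5% lower, and the median log2 fold change was -0.52 where that of all genes was -0.0035. *STR3* (YGL184C, chromosome VII, 154615 to 156012, minus strand), the lyase that turns cystathionine into homocysteine, was at 55.0, 122.8 and 124 CPM in WT and 16.8, 43.2 and 31.2 CPM in *hcm1-3N* (-1.75, SE 0.26, adjusted p = 0.00120 in edgeR). Replicate 1 was low in both strains, and without the block the call was lost (adjusted p = 0.142). *MET2*, which acetylates homoserine, was at 50.2, 105 and 100.5 CPM against 24.5, 42.7 and 27.7 CPM (-1.42, adjusted p = 0.00559). *SUL1*, a high-affinity sulfate permease, was at 9.88, 4.76 and 6.47 CPM against 4.51, 2.56 and 2.62 CPM (-1.13, adjusted p = 0.0205), with the call lost in 4 of 6 fits, those without WT replicate 1 or 3 or *hcm1-3N* replicate 2 or 3. *MHT1*, a homocysteine methyltransferase, overlapped between the strains (24.2, 52.2 and 51.5 CPM against 16.7, 25.6 and 18.1 CPM) yet was lower in each pair (-1.04, adjusted p = 0.00863). *MET17*, the sulfhydrylase that makes homocysteine, fell by 0.62 (adjusted p = 0.00712). The factor genes *CBF1* and *MET31* and the transsulfuration gene *CYS3* were within 0.10 of 0 and were not called, and *SAM2*, at 0.12, was the highest member.

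No member was called higher without the block, on replicates 2 and 3 or without any 1 library. The count of lower members was 9 without the block, 20 in the fit on replicates 2 and 3, and 12 to 17 when single libraries were left out, the lowest without *hcm1-3N* replicate 3. Summed over the list, WT libraries held 7632, 8935 and 9391 CPM and *hcm1-3N* libraries 7171, 7209.5 and 7041 CPM, with no overlap.

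**Figure D2:**
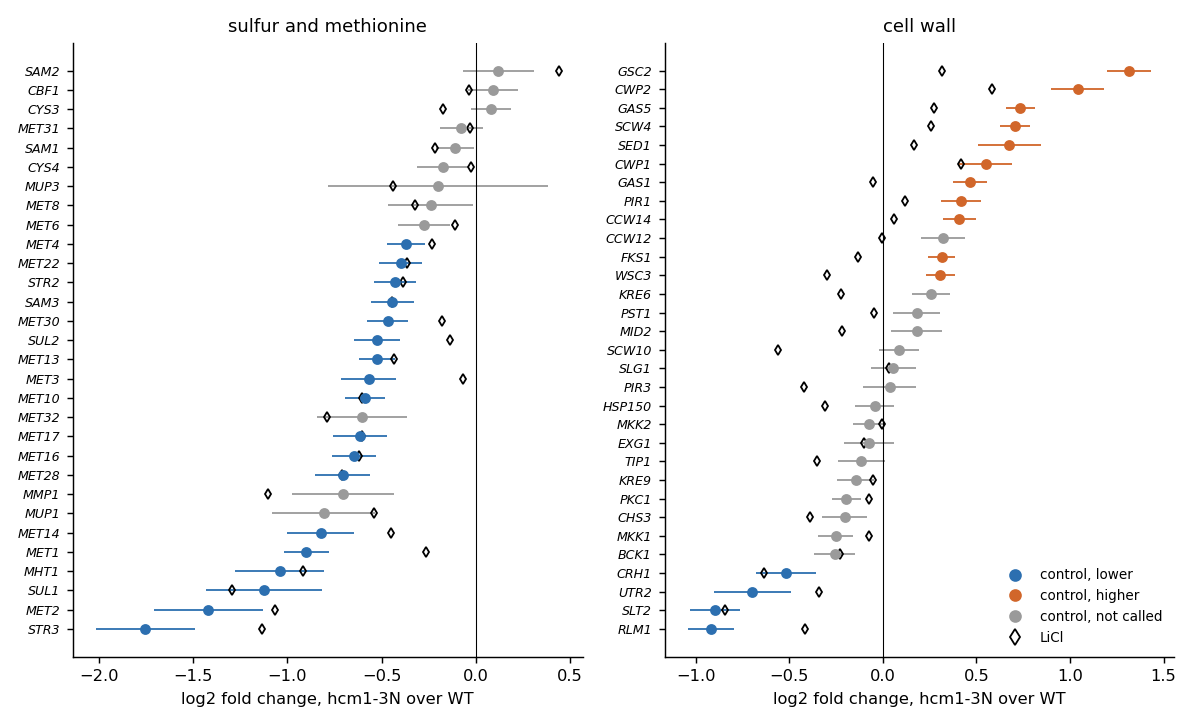
Log2 fold change of hcm1-3N over WT (x axis) of each member of the sulfur and the cell wall list, with standard errors in control medium and the LiCl value as an open diamond. Of 30 sulfur genes 18 are called lower and 0 higher, whereas 11 of 31 cell wall genes are called higher and 4 lower.

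Amino acid synthesis genes moved the same way. Of 61 tested, 26 were lower and 2 higher, 45.9% called against 22.4% of all genes, with a median of -0.31. *ASN1* (YPR145W, chromosome XVI, 822620 to 824338, plus strand), asparagine synthetase, was at 743, 508 and 672 CPM in WT and 365, 288 and 289 CPM in *hcm1-3N* (-1.03, SE 0.11, adjusted p = 0.000103 in edgeR). *GLN1*, glutamine synthetase, was at 1967, 1562 and 1893 CPM against 939, 886 and 921 CPM (-0.98, SE 0.12, adjusted p = 0.000217). Both were clear of overlap and kept their call whichever of the 6 libraries was dropped. *ORT1*, the mitochondrial ornithine transporter of arginine synthesis, went from 46.0 to 50.0 CPM down to 26.9 to 29.3 CPM (-0.75, adjusted p = 0.000348), and *HIS7*, of histidine synthesis, from 131 to 151 CPM down to 82.2 to 87.4 CPM (-0.73, adjusted p = 0.000600). The summed level of the list was 34181, 29833 and 32919 CPM in WT and 29508, 26561 and 27107 CPM in *hcm1-3N*, so that each mutant library lay below each WT library. Without the block 16 members were lower, on replicates 2 and 3 there were 28, and without single libraries 19 to 24.

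The sites of the known activators could be read in the promoters of these genes. Below are stretches of RefSeq's R64 genome upstream of members called lower, the 4 with the largest change in each list that hold the site within 250 bases before the start codon, chosen after their values were seen. Capitals mark 1 occurrence of TGACTCA, the site of Gcn4, for amino acid genes, or of CACGTG, the E-box bound by Cbf1, for sulfur genes, read on either strand. Other occurrences are left in lower case, such as the CACGTG near the 5′ end of the *MET10* stretch. Each sequence is written 5′ to 3′ on the strand of its gene.
ASN1, chrXVI:822370-822439, plus: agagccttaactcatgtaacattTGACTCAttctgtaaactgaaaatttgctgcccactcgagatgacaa
ORT1, chrXV:570992-571057, minus: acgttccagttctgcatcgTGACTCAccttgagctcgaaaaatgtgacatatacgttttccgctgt
HIS7, chrII:716650-716715, minus: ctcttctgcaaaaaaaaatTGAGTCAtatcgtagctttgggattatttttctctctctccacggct
HIS4, chrIII:68486-68572, minus: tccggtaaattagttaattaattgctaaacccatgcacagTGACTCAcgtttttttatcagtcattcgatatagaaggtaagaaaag
MET14, chrXI:439568-439635, minus: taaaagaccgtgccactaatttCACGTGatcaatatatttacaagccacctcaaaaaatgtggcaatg
MET28, chrIX:384293-384369, minus: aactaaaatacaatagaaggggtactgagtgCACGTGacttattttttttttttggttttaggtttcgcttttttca
MET16, chrXVI:877765-877850, minus: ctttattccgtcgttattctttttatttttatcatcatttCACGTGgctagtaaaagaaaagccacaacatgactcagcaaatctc
MET10, chrVI:213062-213126, plus: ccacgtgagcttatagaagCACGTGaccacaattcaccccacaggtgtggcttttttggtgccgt

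The log2 fold changes of the genes in that set not given above were -0.72 for *HIS4*, -0.82 for *MET14*, which encodes APS kinase, -0.71 for *MET28*, a partner of Met4, -0.65 for *MET16*, which encodes PAPS reductase, and -0.59 for *MET10*, a subunit of sulfite reductase. TGACTCA was present in 39.3% of the 61 amino acid promoters and in 2.25% of the 5593 promoters of tested protein-coding genes outside the target list. CACGTG was present in 30% of the 30 sulfur promoters and 2.79% of all. Members with and without the site were lower at like shares. Of 24 amino acid genes with TGACTCA 11 were lower, and of 37 without it 15 were. Of 9 sulfur genes with CACGTG 6 were lower, and of 21 without it 12 were. Over all promoters, 25.4% of the 126 genes with TGACTCA were lower and 7.14% higher. The shares for the 5467 without it were 12.1% and 11.2%.

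Of 33 proteasome genes tested, 15 were lower and 0 higher, 45.5% against the background of 11.5% lower. Their median was -0.25, and members ranged from -0.45 for *RPN10* to 0.18 for *RPN2*. *RPN10*, a ubiquitin receptor of the regulatory particle, was at 127, 159 and 114 CPM in WT and 89.0, 102 and 100.1 CPM in *hcm1-3N* (-0.45, adjusted p = 0.0166 in edgeR). *RPT3*, an ATPase of its base, was at 228, 271 and 269 CPM against 186, 212 and 196 CPM (-0.37, SE 0.075, adjusted p = 0.00346). The summed list was at 6609.7, 7725 and 7084 CPM against 5857, 6402 and 6282 CPM. The number of lower members was 4 without the block, 10 on replicates 2 and 3, 2 without WT replicate 2 and 15 without WT replicate 1. The Rpn4 site GGTGGCA, known as PACE, stood in 81.8% of the proteasome promoters and in 2.45% of all. Members with and without the site were lower at like shares, 12 of 27 with it (44.4%) and 3 of 6 without it (50%). *RPN4* itself was not called (-0.10, adjusted p = 0.472 in edgeR). The site is shown in capitals, on either strand, for the 4 lower members with the largest change that hold it, which fell by 0.33 to 0.37.
RPT3, chrIV:1261465-1261551, plus: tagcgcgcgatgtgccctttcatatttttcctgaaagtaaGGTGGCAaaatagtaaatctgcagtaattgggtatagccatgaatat
RPN6, chrIV:286762-286848, minus: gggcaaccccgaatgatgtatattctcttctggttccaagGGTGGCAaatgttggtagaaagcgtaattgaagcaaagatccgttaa
PRE2, chrXVI:732154-732240, plus: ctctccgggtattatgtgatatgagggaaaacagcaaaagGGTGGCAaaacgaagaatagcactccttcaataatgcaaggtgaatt
SCL1, chrVII:475307-475393, minus: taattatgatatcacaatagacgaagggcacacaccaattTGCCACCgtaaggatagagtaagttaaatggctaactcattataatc

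Genes of the translation machinery were lower in part. Of 138 cytosolic ribosomal protein genes, 35 were lower and 1 higher (median -0.19), and of 53 translation factors and tRNA synthetases 14 were lower and 5 higher (median -0.11). Called members made up 26.1% and 35.8% of these lists, against 22.4% of all genes (11.5% lower and 10.9% higher). *RPS9A* was at 174, 91.0 and 104 CPM in WT and 95.2, 54.5 and 52.2 CPM in *hcm1-3N* (-0.87, SE 0.11, adjusted p = 0.000176 in edgeR), and *RPL7B* at 299.9, 190.1 and 223 CPM against 157, 125 and 131 CPM (-0.77, adjusted p = 0.00499). Both have a paralog of near identical sequence, so that part of their reads is uncertain. *TYS1*, the tyrosyl-tRNA synthetase, fell by 0.61 (SE 0.085, adjusted p = 0.000380), and *EFB1*, an elongation factor, by 0.47 (adjusted p = 0.00553). Counts for translation factors fell to 7 lower without *hcm1-3N* replicate 1 and without the block. The 133 genes of ribosome assembly did not go one way, with 13 lower and 8 higher (15.8% called, and 1 lower without *hcm1-3N* replicate 1), and mitochondrial ribosomal protein genes were called in 5 of 75 cases (6.67%). Both shares are below the 22.4% of all genes. Replicate 1 mattered for this group. Only 5 ribosomal protein genes were lower without *hcm1-3N* replicate 1, 4 without the block and 19 on replicates 2 and 3, and the summed levels (204132, 178605 and 194204 CPM against 179390, 168633 and 184074 CPM) overlapped between the strains.

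Cell wall genes were called in both directions. Of 31 tested, 11 were higher and 4 lower, 48.4% against 22.4% of all genes, with 7 higher without WT replicate 1 and 6 on replicates 2 and 3. Beside *GSC2*, *CWP2*, a major mannoprotein, was at 1806, 3886 and 3769.5 CPM in WT and 4797, 7666 and 6575 CPM in *hcm1-3N* (1.04, SE 0.14, adjusted p = 0.000352 in edgeR). Lower members included signalling genes of the wall. *SLT2* (YHR030C, chromosome VIII, 168890 to 170344, minus strand), the MAP kinase of cell wall integrity, was at 341, 419.8 and 432 CPM against 178, 240.2 and 225 CPM (-0.90, SE 0.13, adjusted p = 0.000510). *RLM1*, the transcription factor it phosphorylates, was at 133, 127 and 142 CPM against 73.2, 74.1 and 65.4 CPM (-0.92, SE 0.12, adjusted p = 0.000299 in edgeR). *PRM5*, a membrane protein gene known as a target of this pathway, is not a member of the list. It was at 233, 213 and 228 CPM against 120.5, 102 and 94.6 CPM (-1.09, adjusted p = 0.000499 in edgeR). These 3 and *GSC2* were called in all 6 fits without a library, without the block and on replicates 2 and 3. The other kinase genes of the list, *PKC1*, *BCK1*, *MKK1* and *MKK2*, were between -0.26 and -0.07 and were not called. Summed, the list was at 34786, 45442 and 52886 CPM in WT and 53995, 58193 and 59514 CPM in *hcm1-3N*.

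Genes of cell separation and mating belong to the surface too. Of 16 genes of the M/G1 phase and of daughter cells, 4 were higher and 1 lower (31.2% called against 22.4% of all genes), and 2 were higher without WT replicate 1 and without the block. *CTS1*, the chitinase that parts mother and daughter, was at 1149, 1067 and 1125 CPM against 2319, 1834 and 1958 CPM (0.87, SE 0.12, adjusted p = 0.000352), and *DSE2*, a daughter-cell wall protein, at 458, 399.9 and 453 CPM against 998, 619 and 659.8 CPM (0.78, adjusted p = 0.00282). The highest mutant level of both was in replicate 1. *FIG1* (YBR040W, chromosome II, 316968 to 317864, plus strand), a membrane protein of mating, was low in WT at 2.55, 3.08 and 3.398 CPM and reached 11.1, 9.15 and 11.2 CPM in *hcm1-3N* (1.79, SE 0.18, adjusted p = 7.7e-05). *AGA1*, the anchor of a-agglutinin, rose by 0.90 (adjusted p = 0.000813) and *FIG2*, an adhesin of mating, by 0.72 (SE 0.087, adjusted p = 0.000176). *FUS1*, needed for cell fusion, fell by 0.59 (adjusted p = 0.0177), so the 21 mating genes of a cells were not of one direction (33.3% called, 4 higher, 3 lower, the latter 0 without *hcm1-3N* replicate 1 and without the block). Among alpha-cell genes *SAG1*, the alpha-agglutinin, was at 30.7, 32.3 and 39.1 CPM against 50.7, 49.1 and 58.9 CPM (0.64, adjusted p = 0.000413). *MF(ALPHA)1*, the gene of alpha factor, was at 1.56, 1.31 and 1.75 CPM against 2.33, 7.58 and 6.55 CPM (1.81, adjusted p = 0.0106, lost without WT replicate 2), and *STE3*, the receptor for a factor, rose by 0.41 (adjusted p = 0.0399). These 3 are the called members of 5 alpha-cell genes tested. Their summed level was 45.1 to 53.2 CPM in WT and 68.3 to 83.0 CPM in *hcm1-3N*. The part of alpha cells in this was not tested, and the a-cell genes *MFA1*, *STE2*, *BAR1*, *STE6* and *AGA2* were not called.

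Stress genes differed by list. Of the 50 genes of the general stress response with trehalose and glycogen, 46 had a positive log2 fold change, with a median of 0.42, but 8 were called higher and 0 lower, 16% against a background of 10.9% higher. The spread between replicates was wide here, since replicate 1 lay far below the others in both strains (12185, 26659 and 24012 CPM summed in WT, 16787, 33359 and 31655 CPM in *hcm1-3N*). The fit on replicates 2 and 3 called 15 higher and 0 lower, the fit without the block 1, and the fits without a library 3 to 7, the lowest without *hcm1-3N* replicate 3. Of 26 heat shock chaperones 2 were higher and 3 lower (median -0.06), and of 36 genes of oxidative defence 1 was higher and 6 lower (median 0.04, and 2 lower without *hcm1-3N* replicate 1). These lists had 19.2% and 19.4% called, below the 22.4% of all genes. *HSP26*, a small heat shock protein, was at 11.6, 39.8 and 31.6 CPM in WT and 44.4, 107 and 108 CPM in *hcm1-3N* (1.67, SE 0.25, adjusted p = 0.00107 in edgeR). *HSP12*, a membrane-bound stress protein, was at 30.6, 74.6 and 42.3 CPM against 57.5, 173 and 163 CPM (1.37, SE 0.30, adjusted p = 0.00904), with overlap between the strains because of replicate 1. *PHM7* rose by 1.18 (adjusted p = 0.0304) and *XBP1*, a stress-induced repressor, by 1.14 (adjusted p = 0.0319). The *PHM7* call held in 1 of 6 fits without a library, the one without WT replicate 1, and the *XBP1* call in 2, those without WT replicate 1 or *hcm1-3N* replicate 2.

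Msn2 and Msn4 bind the stress element AGGGG. It was found, on either strand, in 56% of the stress promoters and in 19.3% of all, and in 12.4% of the promoters of lower and 20.6% of those of higher genes. Only *HSP12* and *GND2*, a pentose phosphate enzyme whose transcript rose by 0.31, were both called and held it within 250 bases. Of the 28 stress genes with the element these 2 were higher (7.14%), and of the 22 without it 6 were (27.3%). Both stretches are given with the element in capitals.
HSP12, chrVI:107026-107110, plus: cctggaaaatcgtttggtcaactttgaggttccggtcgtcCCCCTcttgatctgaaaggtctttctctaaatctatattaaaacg
GND2, chrVII:1004420-1004504, plus: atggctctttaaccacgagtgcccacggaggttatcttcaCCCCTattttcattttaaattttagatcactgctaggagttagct

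Of the 36 nuclear genes of oxidative phosphorylation, 11 were higher and 0 lower (30.6% against a background of 10.9% higher, median 0.26). *COX4*, a subunit of cytochrome c oxidase, was at 56.5, 93.4 and 88.3 CPM against 101, 135 and 129 CPM (0.64, SE 0.13, adjusted p = 0.00380), and *ATP2*, the beta subunit of the ATP synthase, at 641, 815 and 830.1 CPM against 989, 1195 and 1219.7 CPM (0.58, adjusted p = 0.00226). Without the block 1 of the 36 was called, on replicates 2 and 3 there were 8, and without single libraries 4 to 6, the lowest without *hcm1-3N* replicate 3. Glycolytic genes, whose transcripts are among the most abundant of the cell, were higher in 5 of 21 cases and lower in 0 (23.8% called, against 22.4% of all genes). *PGK1* was at 8585, 7868 and 8566 CPM against 11621, 10615 and 11917 CPM (0.45, adjusted p = 0.0103), and *ADH1* rose by 0.38 (adjusted p = 0.00808). Without WT replicate 2 no glycolytic gene was called higher, and the *PGK1* call was lost there and without *hcm1-3N* replicate 1. Since CPM are shares of a library, a rise of abundant transcripts and a fall of others cannot be told apart from these data. Purine and one-carbon genes were lower in 7 and higher in 3 of 25 cases (40% called against 22.4% of all genes, and 2 and 0 without the block). Among the lower was *MTD1*, a folate enzyme, at 274, 469.6 and 531 CPM against 140.3, 300.2 and 272 CPM (-0.87, adjusted p = 0.00379 in edgeR).

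**Figure D3:**
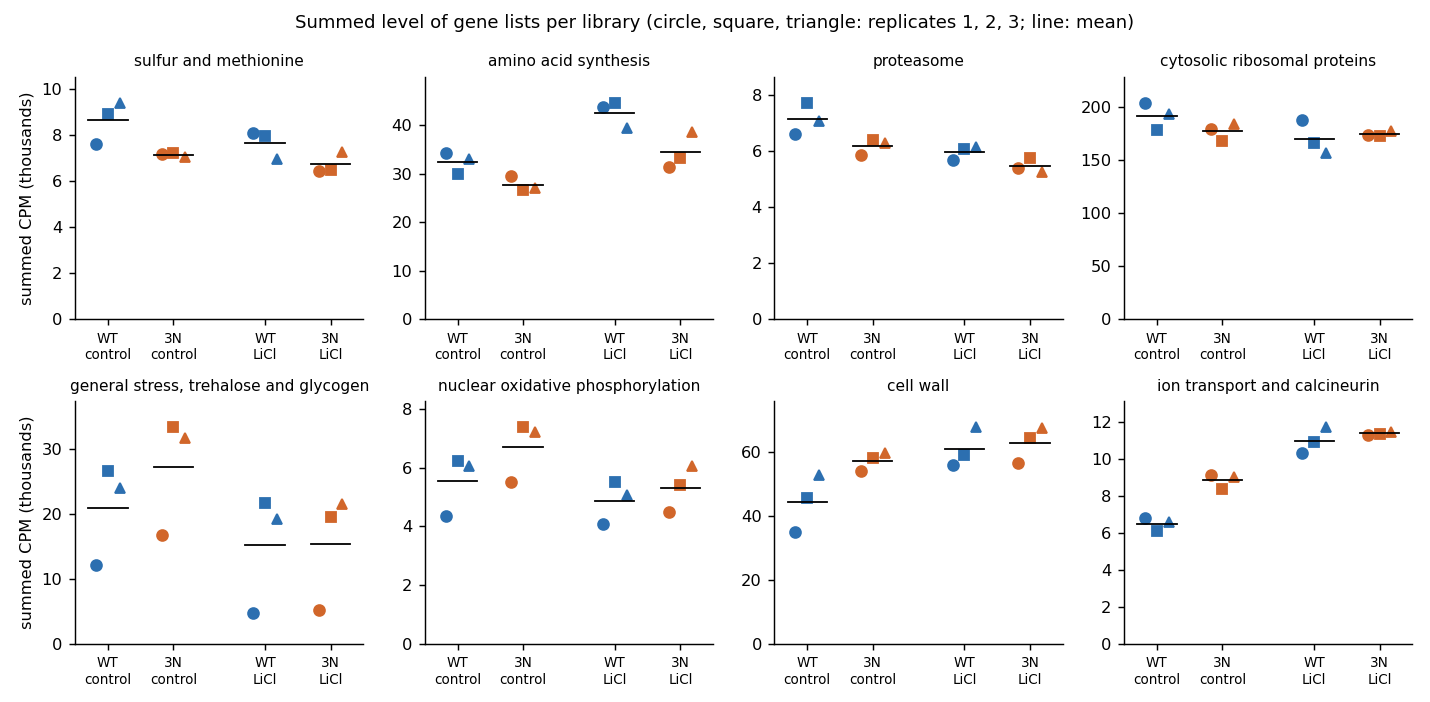
Summed CPM divided by 1000 (y axis) of 8 gene lists in each WT and hcm1-3N library, in control medium and LiCl, with a marker shape for each replicate and a line at the group mean. In control medium sulfur and amino acid genes are lower and cell wall and ion transport genes higher in every hcm1-3N library than in every WT library; in general stress genes replicate 1 lies low in each group.

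Of 23 genes of ion transport and calcineurin, 8 were higher and 2 lower, 43.5% called against 22.4% of all genes. The higher count was 4 without *hcm1-3N* replicate 1 and without the block. The summed level went from 6799, 6121 and 6598 CPM in WT to 9149.8, 8375 and 9039 CPM in *hcm1-3N*. Most of that sum was *PMA1*, the plasma membrane proton pump, at 4609, 3768 and 4167 CPM against 6767, 5793 and 6419.6 CPM (0.60, SE 0.091, adjusted p = 0.000626 in edgeR). *PMA2*, its rarer paralog, was at 24.5, 15.4 and 15.9 CPM against 31.6, 29.7 and 33.2 CPM (0.79, SE 0.11, adjusted p = 0.000380), and its reads could in part be those of *PMA1*. *NHA1*, the antiporter that exports sodium and potassium, was at 91.0, 74.0 and 91.8 CPM against 128, 117 and 133 CPM (0.56, adjusted p = 0.00562). *RCN1*, a regulator and target of calcineurin, was lower at 12.8, 21.7 and 19.7 CPM against 19.8, 30.3 and 26.3 CPM in WT (-0.51, adjusted p = 0.00543). Among iron, copper and zinc genes 14 of 38 were higher and 2 lower, 42.1% called against 22.4% of all genes. Without the block 7 were higher, and without WT replicate 2 there were 8. *ZRT1*, the high-affinity zinc transporter, went from 181 to 202 CPM up to 264 to 352 CPM (0.67, adjusted p = 0.00461), and *FIT1*, a mannoprotein of siderophore uptake, from 6.47 to 6.79 CPM up to 9.81 to 11.4 CPM (0.68, adjusted p = 0.00127). *HMX1*, heme oxygenase, fell from 86.4 to 89.5 CPM to 45.2 to 48.4 CPM (-0.93, adjusted p = 0.0264). The *HMX1* call stood in 1 of 6 fits without a library, the one without WT replicate 2, although no library overlapped.

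Lipid, secretory and vitamin genes were more mixed. *INO1*, which makes inositol for phospholipids, had the largest rise of its list and the widest spread, at 28.1, 208 and 198 CPM in WT and 57.8, 827 and 801 CPM in *hcm1-3N* (1.81, SE 0.48, adjusted p = 0.0238 in edgeR). Its strains overlapped through replicate 1, the call was lost in 5 of 6 fits (kept only without *hcm1-3N* replicate 1), and replicates 2 and 3 gave 1.99 (adjusted p = 0.00168). *OPI3*, a methyltransferase of phosphatidylcholine synthesis, was higher in each pair at 847, 1621 and 1506 CPM against 1412, 2561 and 2809 CPM (0.77, adjusted p = 0.000532). In the ER list 12 of 39 genes were higher and 3 lower, with *SEC61*, the channel of the translocon, at 284, 250.3 and 283 CPM against 411, 368 and 389 CPM (0.51, SE 0.083, adjusted p = 0.000977), and in the ergosterol list 8 of 31 were higher and 4 lower. Called members made up 38.5% of the ER and 38.7% of the ergosterol list, against 22.4% of all genes. The higher counts were 6 without WT replicate 1 for the ER list and 4 without *hcm1-3N* replicate 3 for the ergosterol list. *SNZ1*, of vitamin B6 synthesis, was at 178, 108 and 126 CPM against 99.6, 55.1 and 54.6 CPM (-0.99, adjusted p = 0.00326), while *BNA4* and *BNA5*, of NAD synthesis, rose by 0.70 and 0.76 (adjusted p = 0.00267 and 0.000220). *PHO5*, the secreted acid phosphatase, was at 13.9, 15.2 and 14.7 CPM against 26.9, 24.3 and 25.5 CPM (0.81, SE 0.12, adjusted p = 0.000536). It was the 1 gene of 27 in the phosphate list that was higher, and 4 were lower, *GDE1*, *PHO2*, *VIP1* and *PHO86* (-0.49 to -0.28). Called members made up 18.5% of the phosphate list, below the 22.4% of all genes. The count of lower members was 1 without *hcm1-3N* replicate 3.

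Cell cycle genes outside the target list differed by phase. Of 13 G1/S genes 4 were lower and 0 higher (30.8% called against 22.4% of all genes, median -0.30). Without the block 2 were lower, and on replicates 2 and 3 there were 7. *PCL1*, a G1 cyclin of the kinase Pho85, was at 21.5, 30.9 and 19.4 CPM against 17.2, 11.6 and 9.40 CPM (-0.96, SE 0.21, adjusted p = 0.00627 in edgeR), and its relative *PCL2* fell by 0.80 (adjusted p = 0.000977). *BCK2* and *CDC28* were the other called genes, at -0.44 and -0.40. Of 25 G2/M genes 8 were lower and 2 higher, with *CDC20*, the activator of the anaphase-promoting complex, at 58.4, 65.5 and 60.1 CPM against 43.5, 39.1 and 35.6 CPM (-0.64, adjusted p = 0.00342). Of the G2/M genes 40% were called, and only 1 was lower without WT replicate 2. Of 63 genes of DNA replication and cohesion 16 were lower and 3 higher, where the background was 11.5% lower. Without *hcm1-3N* replicate 1 the lower count was 5 and without the block 6, and the higher count was 0 without WT replicate 2. Their summed levels overlapped (2978, 2955 and 3009.9 CPM summed in WT against 3005, 2891 and 2916 CPM). Spindle and kinetochore genes outside the target list were higher in 8 and lower in 3 of 50 cases (22% called, against 22.4% of all genes; 2 higher without *hcm1-3N* replicate 1), and of 7 core histone genes 1 was higher and 0 lower (median 0.18).

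**Figure D4:**
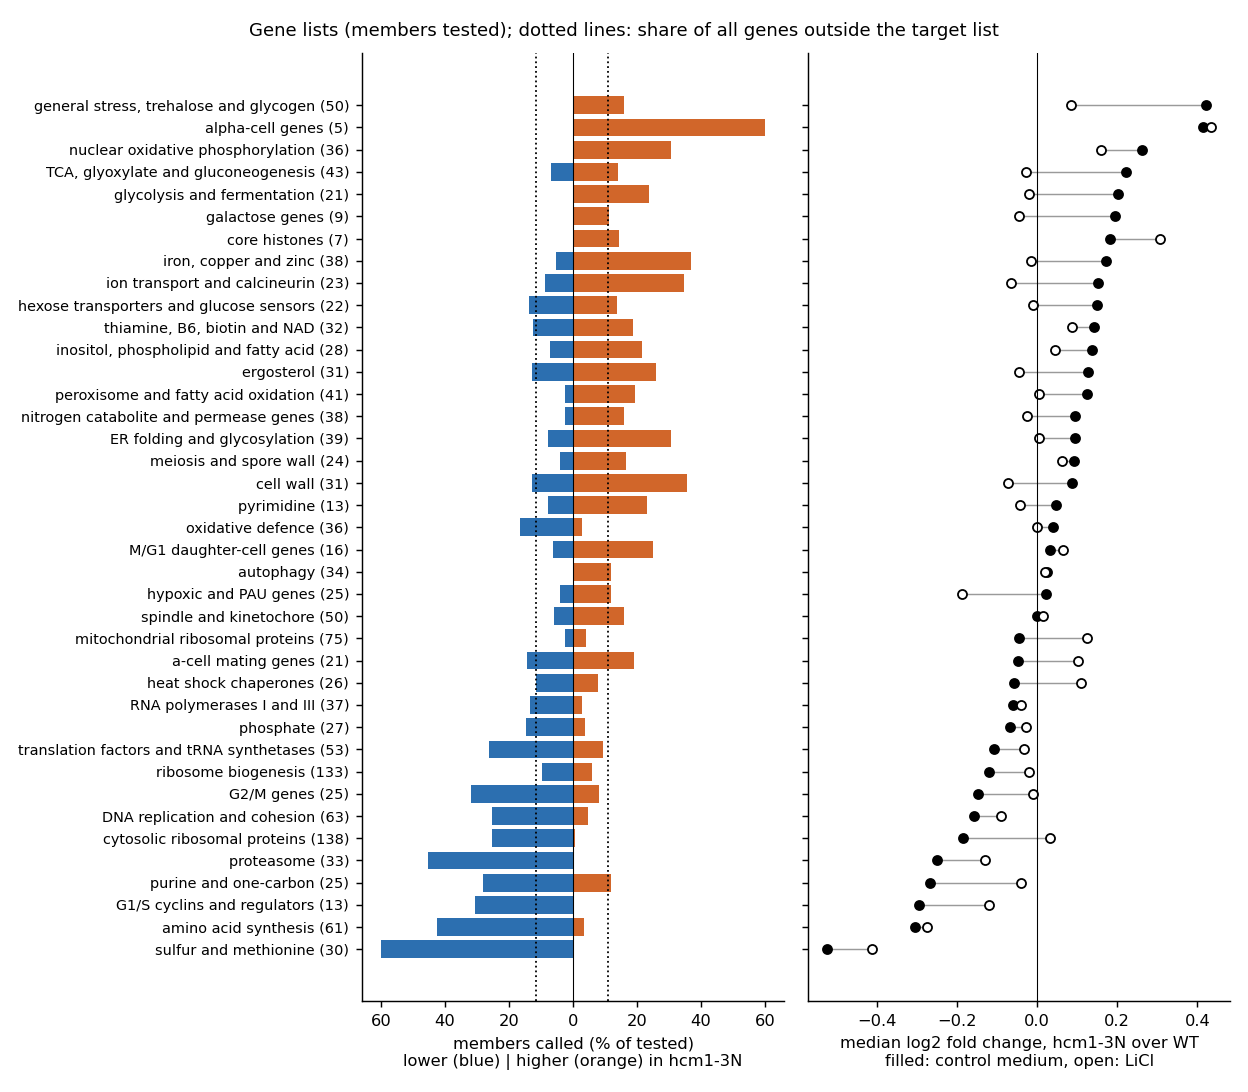
Share of each list's tested members (number in brackets) called lower (blue) or higher (orange) in hcm1-3N in control medium on the left, and the median log2 fold change in control medium (filled) and LiCl (open) on the right, with lists ordered by the control median. Sulfur genes are at the bottom, with 60% lower and a median of -0.52, and dotted lines mark the 10.9% higher and 11.5% lower among all genes outside the target list.

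ORFs of the count table that RefSeq does not list, many of which are short or overlap another gene, were higher in 38 and lower in 2 of 368 tested, 10.9% called against 22.4% of all genes (14 higher without the block). Their median was 0.32, and their summed level was 796, 788 and 847 CPM in WT and 1193, 1068 and 1019.9 CPM in *hcm1-3N*. The largest fold changes of all were among them, from low WT levels that were near the floor in *YDL023C*. *YDL023C* was at 0.760, 0.0934 and 0.472 CPM in WT and 6.94, 2.56 and 2.05 CPM in *hcm1-3N* (3.10, SE 0.77, adjusted p = 0.0148 in edgeR), and *YCR013C* at 5.01, 0.887 and 2.31 CPM against 27.8, 9.05 and 6.72 CPM (2.35, adjusted p = 0.0475, lost in all 6 fits without a library). Whether the counting used strand is not stated, so that such ORFs cannot be told apart from a gene on the other strand. The systematic name of *YCR013C* puts it next to *PGK1*, YCR012W, on the other strand, which rose by 0.45. *YDR133C*, at 31.8, 57.6 and 49.2 CPM against 80.0, 111 and 109 CPM (1.14, adjusted p = 0.000190), lies beside YDR134C, annotated as a pseudogene, which rose by 0.72 (adjusted p = 0.00298). Both names end in C, for the same strand, and the source of the *YDR133C* reads was not tested.

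ORFs of Ty retrotransposons were lower in 13 and higher in 0 of 42 tested (31% against a background of 11.5% lower, median -0.36). Their summed level was 1102, 885 and 893 CPM in WT and 791, 681 and 668 CPM in *hcm1-3N*. *YOR192C-B* was at 23.5, 15.1 and 17.3 CPM against 12.2, 9.86 and 9.34 CPM (-0.82, SE 0.14, adjusted p = 0.00164). Ty copies are near identical and only reads with a mapping quality above 20 were counted, so these are counts of the reads that could be placed. Of 71 small nuclear and nucleolar RNAs 5 were higher and 1 lower (8.45% called), and of 47 tRNAs 1 was higher and 0 lower (2.13%), in libraries selected for poly(A). Both shares are below the 22.4% of all genes. Within 25000 bases of a chromosome end 33 genes were higher and 17 lower of 253 (19.8% called, also below that share), with a median of 0.06. Genes farther inside had 598 higher and 688 lower of 5475 (23.5% called). Higher and lower genes had like lengths (median 1212 and 1242 bases, 1203 for all) and GC contents (40.2% and 40.3%, 39.6% for all).

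In LiCl the same strains differed in fewer genes, 71 higher and 116 lower outside the target list, 1.16% and 1.89% (3.04% together). With the targets included 190 genes were called (3.05%), 74 higher (1.19%) and 116 lower (1.86%). Of the 670 genes higher in control medium 41 were also called higher in LiCl (6.12%, and 57.7% of the 71), and of the 707 lower genes 53 were also called lower (7.5%, and 45.7% of the 116). The called genes kept their sign in LiCl in 67.3% of higher and 79.6% of lower cases, where 47.3% and 52.7% of all genes had those signs, but their median log2 fold change there was 0.06 and -0.10. Since these genes were chosen by their values in control medium, smaller medians in LiCl are favoured by the choice alone. Amino acid synthesis (18 of 61 lower, median -0.28) and sulfur genes (7 of 30 lower, median -0.41) were lower in LiCl as well. Summed sulfur levels overlapped there, at 8074, 7976 and 6964 CPM in WT and 6430, 6488 and 7286 CPM in *hcm1-3N*. In replicate 3 the mutant lay above WT. The summed amino acid levels did not overlap between the strains in LiCl. *FIG1* (1.59, adjusted p = 0.000177), *SLT2* (-0.84, adjusted p = 0.00377), *PRM5* (-0.87, adjusted p = 0.0100), *PHO5* (0.87, adjusted p = 0.00235) and *MF(ALPHA)1* (2.10, adjusted p = 0.00964) also kept their call in edgeR. Ribosomal protein genes (0 of 138 called, median 0.03), proteasome genes (0 of 33, median -0.13) and glycolytic genes (0 higher and 1 lower of 21, median -0.02) were not called there in the direction of control medium. A call in one medium and not in the other is not a difference between them. That was tested for each gene, and 39 genes passed (0.635%), 35 with a lower log2 fold change in LiCl (0.57%) and 4 with a higher one (0.0651%). Over all genes, targets included, 40 passed (0.641%), 36 lower (0.577%) and 4 higher (0.0641%). Of the 39, 34 were also called in control medium. Without the block the edgeR count over all genes was 0, with 705 at an unadjusted p under 0.05, and DESeq2 with the block called 294.

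**Figure D5:**
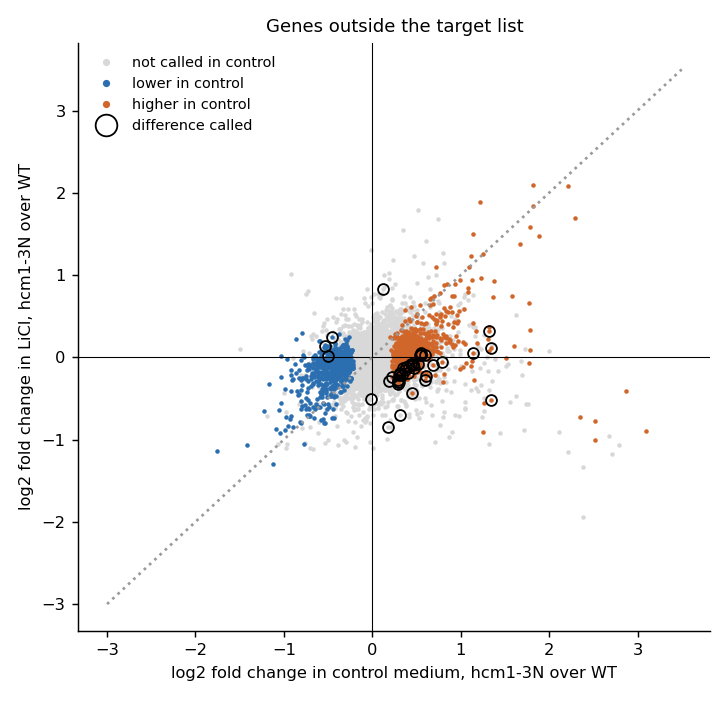
Log2 fold change of hcm1-3N over WT in control medium (x axis) and in LiCl (y axis) for the 6143 genes outside the target list, coloured by their call in control medium, with circles around the 39 genes whose difference between media was called. Most called genes lie closer to 0 in LiCl than in control medium, below the dotted line of equal values for higher genes and above it for lower ones. They were chosen by their values in control medium, and that choice alone favours values closer to 0 in LiCl.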

How the data were processed

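The study sequenced poly(A) RNA in strand-specific paired-end libraries. The authors aligned reads to the R64 build with an aligner whose name is not given in the sources used here, assigned them to genes with featureCounts where the mapping quality exceeded 20, and deposited the raw counts. Their TPM table was not used here. Counts were TMM-scaled, filtered by edgeR's filterByExpr and fitted with edgeR 4.0.16 in R 4.3.3 (quasi-likelihood, robust) over all 18 libraries with group and replicate number. DESeq2 1.42.0 was an alternative. The other alternatives were the fit without the block or with a block in each medium, DESeq2's size factors, no filter on low counts, fewer libraries, and leaving out each library.

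Libraries were paired by the numbers in their labels. Same-numbered libraries of different groups correlated in their deviations at 0.52 on average over 45 pairs and differently numbered ones at -0.22 over 90 pairs (lowest same-numbered pair 0.237, highest differently numbered pair 0.698). Replicates of a group differed beyond counting noise (chi-square per gene of 10.3 or more), so no library was a copy.

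Named genes were *HCM1* and the strain markers, the 12 highest and 12 lowest genes described in the text, up to 4 called genes of each of 39 gene lists and up to 3 of each gene type with the largest change, and up to 3 genes in each direction whose difference between media was called along with their difference in control medium. The comparison, lists and rules were chosen with earlier results of these data known. Gene positions, types and promoters (250 bases before the start codon, 150 as the alternative) come from RefSeq's R64 annotation.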

Additional observations from a re-analysis of the deposited data

Results flagged for a closer look

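The strain difference itself was called different between media, by edgeR's test of the difference with Benjamini-Hochberg adjustment, in 10 of the genes named by the rule. No gene was called in this test without the block or without the filter on low counts. The same held without WT LiCl replicate 1, 2 or 3 and without *hcm1-3N* LiCl replicate 1 or 2, so these 10 calls depend on the processing. A value is the log2 fold change of *hcm1-3N* over WT in LiCl minus that in control medium. It was -1.85 for *YHR182C-A*, an ORF that RefSeq does not list (1.34 in control medium and -0.51 in LiCl, adjusted p = 0.0456), -1.23 for *YLL053C* (1.35 and 0.12, adjusted p = 0.0345) and -1.09 for its neighbour *AQY2* (1.14 and 0.05, adjusted p = 0.0410), both parts of an aquaporin gene, at 2.59 to 9.004 CPM in the control libraries. It was -1.001 for *GSC2* (1.31 and 0.31, adjusted p = 0.0345), -0.88 for the uracil permease *FUR4* (0.45 and -0.43, adjusted p = 0.0410), -0.84 for *PMA2* (0.79 and -0.05, adjusted p = 0.0410) and -0.61 for *URA2*, the first enzyme of pyrimidine synthesis (0.52 and -0.09, adjusted p = 0.0456). It was 0.51 for *DPH5*, of diphthamide synthesis (-0.50 and 0.01, adjusted p = 0.0464), 0.67 for *ADE1*, of purine synthesis (-0.54 and 0.14, adjusted p = 0.0345), and 0.70 for the ribosomal protein gene *RPL8A* (-0.46 and 0.24, adjusted p = 0.0456).

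All 10 were also called in control medium, a choice that favours genes with a larger difference there. In all 10 the difference was larger in size in control medium than in LiCl. For *GSC2* the WT libraries were at 174, 214 and 222 CPM in LiCl against 96.3, 111 and 108 CPM in control medium, while the *hcm1-3N* libraries were at 236, 261 and 258 CPM against 222, 276 and 289.9 CPM. For *FUR4* the sign turned, with 67.5, 40.0 and 41.9 CPM in WT and 52.3, 29.2 and 30.2 CPM in *hcm1-3N* in LiCl (adjusted p = 0.0490 there).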

How the results depend on the processing

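In control medium 1403 of all 6239 genes were called, 694 higher and 709 lower, targets included. The count was 479 (264 and 215) with no replicate block, 2647 (1252 and 1395) on the 9 control libraries and 3067 (1441 and 1626) on the 6 libraries, and 1083 on replicates 2 and 3, a setting chosen after seeing the data, where 881 of the 1403 remained. Without single libraries it was 646 to 1002, 311 to 453 higher (fewest without WT replicate 2) and 314 to 564 lower (fewest without *hcm1-3N* replicate 1). In LiCl 190 genes were called, 45 without the block, 356 with the block within each medium, 299 by DESeq2, 122 on replicates 2 and 3, and 27 to 222 without single libraries. The difference between media gave 40 calls, 0 without the block (705 at an unadjusted p under 0.05), 408 with the block within each medium, 294 by DESeq2, 0 without the filter (1291 unadjusted), 21 on replicates 2 and 3, and 0 to 477 without single LiCl libraries. It was 0 in 5 of these 6 fits (891 to 1233 unadjusted) and 477 without *hcm1-3N* LiCl replicate 3, so these calls depend on the block, the filter and single libraries. With no filter the split was 561 higher and 783 lower, 41.7% higher against 49.5%. Of the 202 genes of the naming rule that were tested, 97 calls were lost with no replicate block and no direction turned. *STE2* changed sign to -0.0046 on replicates 2 and 3 and *MF(ALPHA)2* to -0.044 without WT replicate 2 (0.58 without WT replicate 1), neither of them called. With 150 in place of 250 bases TGACTCA was in 9.84% of amino acid and 0.93% of all promoters, CACGTG in 3.33% of sulfur and 0.894% of all, GGTGGCA in 60.6% of proteasome and 1.32% of all, and AGGGG in 16% of stress and 11.4% of all. At 3 counts per library, genes under about 0.17 CPM could not be followed.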
